A study of Nannochloropsis oceanica with 18 samples.

Results

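Histone H3 lysine 36 dimethylation (H3K36me2) was compared with histone H3 lysine 27 acetylation (H3K27ac) in the marine microalga Nannochloropsis oceanica, strain IMET1, after 2 days without nitrogen (N2). All libraries of these marks in N2 were taken by mark and condition from the 18 labelled chromatin immunoprecipitation sequencing (ChIP-seq) libraries, which gave 2 H3K36me2 and 2 H3K27ac libraries. The marks were compared over all 3803 regions for which values were deposited. The same marks in nitrogen-replete cells (C0) and after 1 day without nitrogen (N1), and lysine crotonylation (Kcr) in all conditions, served as further readouts. All groups were the same strain in f/2 medium under continuous light, and both deprived groups had been washed, moved to medium without nitrogen and grown in dimmer light than the C0 culture. Within N2 the marks share this history, whereas nitrogen, transfer and light cannot be told apart in any comparison with C0.

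Acetylation of lysine 27 neutralises a positive charge on the histone tail and is generally found at the start sites of active genes. Dimethylation of lysine 36 is laid down over gene bodies in many eukaryotes. Kcr is an acyl mark like acetylation, and it tends to lie at active start sites as well. N. oceanica stores lipid when nitrogen runs out, and the study asked how chromatin changes during that response.

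The level of a mark is given as the ratio of the coverage over a region (pileup) to the local background expected there (lambda), so that a ratio of 1 is no enrichment. The difference between the marks is the log2 ratio of H3K36me2 minus that of H3K27ac, and positive values mean more H3K36me2. The antibodies behind both marks are not settled, since the labels give 1 catalogue number for both and the methods of the study name others. A ratio also depends on how well an antibody enriches, and a difference between the marks in antibody performance cannot be told apart from a difference in modification. The marks were therefore also compared after every library had been set to an equal median and an equal standard deviation (SD), which compares where each mark stands within its own distribution.

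The pileup rose in whole steps that would correspond to 3.59 and 4.40 M fragments in the H3K36me2 libraries of N2 and to 1.96 and 2.22 M in those of H3K27ac. The median pileup was 94 and 114 steps for H3K36me2 and 90 and 103 steps for H3K27ac. The libraries of a pair correlated across the 3803 regions at r = 0.874 for H3K36me2 and 0.968 for H3K27ac. The chi-square over the regions, taken on pileups in steps and divided by its degrees of freedom, was 0.665 and 0.742, and thus below that of independent counts. The study describes 2 biological replicates per sample, while the labels do not say that the libraries came from separate cultures. The values of both libraries are printed in place of an SD. The fits used both libraries of each mark, so standard errors (SE), p-values and counts of calls rest on 2 libraries a mark and cover only the spread between them.

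H3K27ac had the higher ratio over most of the regions, and it spanned a much wider range than H3K36me2. The median ratio was 1.87 and 1.88 in the H3K27ac libraries and 1.11 in both H3K36me2 libraries. The highest ratios were 8.10 and 8.21 for H3K27ac, against 2.12 and 2.05 for H3K36me2. A ratio of at least 2 was reached by 1670 and 1718 regions for H3K27ac and by 1 region in each H3K36me2 library. The number of regions below a ratio of 1 was nevertheless similar, at 1019 and 1031 for H3K27ac and 1194 and 1186 for H3K36me2. The SD of the log2 ratios was 0.86 in both H3K27ac libraries and 0.33 in both H3K36me2 libraries. The local background hardly differed between the marks, with a ratio of 0.976 to 1.04 over the regions.

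The median difference over the regions was -0.77 on the log2 scale, with a range from -3.12 to 1.49. At an adjusted p under 0.05 (limma), 2668 regions (70.2%) had more H3K27ac and 914 (24%) had more H3K36me2. The libraries of the 2 marks did not overlap in 2730 and 951 regions in these directions. A difference of at least 2-fold was called for 1302 regions (34.2%) toward H3K27ac and for 176 (4.63%) toward H3K36me2. The excess of calls toward H3K27ac rested on the scale. With equal medians and SDs, 1086 regions (28.6%) were called toward H3K27ac and 1351 (35.5%) toward H3K36me2. Without replicate 1 or replicate 2 of H3K27ac, the calls toward H3K27ac on that scale numbered 558 and 567. With equal medians alone, the counts were 1275 (33.5%) and 1343 (35.3%). The library medians of the marks differed by -0.76, and setting them equal moved every region by that amount toward H3K36me2.

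This shift largely fixes which calls can be lost. Of the 914 regions with more H3K36me2, 898 kept that call with equal medians and SDs, 16 lost it and 0 turned. Of the 2668 regions with more H3K27ac, 1068 kept their call, 1253 lost it and 347 were called toward H3K36me2.

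**Figure D1:**
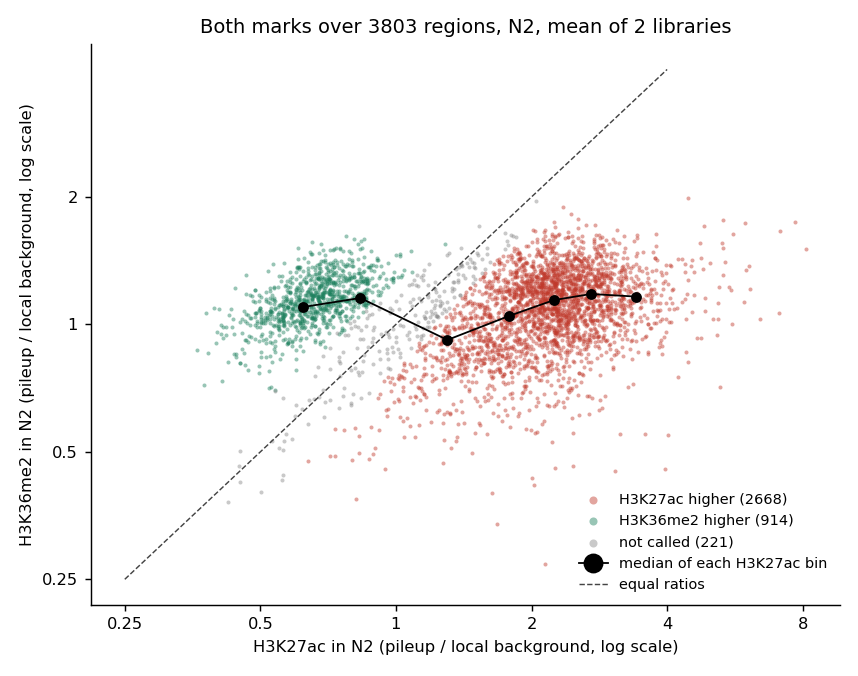
Ratio of pileup to local background in N2 for H3K27ac (horizontal) and H3K36me2 (vertical), both on log scales, for 3803 regions as means of 2 libraries, coloured by the limma call on the unscaled ratios. The black points are the medians of 7 bins of H3K27ac. The 914 regions with more H3K36me2 lie toward the left, and the H3K36me2 median is lowest, at 0.92, in the bin with an H3K27ac ratio of 1 to 1.5.

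The levels of the marks were nearly unrelated across the regions, and the relation was not a straight one. The correlation of the log2 ratios was r = 0.14 over the 3803 regions, which share libraries, background and genome and are not independent. By comparison, H3K27ac and Kcr correlated at r = 0.92 in N2, and H3K36me2 and Kcr at r = 0.07. The median H3K36me2 ratio was 1.10 in the 732 regions with an H3K27ac ratio under 0.75 and 1.15 in the 297 regions at 0.75 to 1. It was 0.92 in the 395 regions at 1 to 1.5, 1.05 at 1.5 to 2, 1.14 at 2 to 2.5 and 1.18 in the 493 regions at 2.5 to 3. In the 324 regions with a ratio of 3 or more it was 1.16. Among the listed regions, H3K36me2 was thus lowest where H3K27ac was slightly enriched, and higher on both sides of that bin. The regions had been merged from peaks by the authors, and one with little H3K27ac may be listed through another mark. In the bin under 0.75 the median Kcr ratio in N2 was 0.60, and only H3K36me2 had a median above 1. The part of this listing in the relation and in its r was not tested.

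The 5 regions with the largest difference toward H3K27ac were chosen by its size and combined strong acetylation with coverage below background for H3K36me2. At peak2026 on chromosome 23 (488025 to 490533), the H3K36me2 ratio was 0.481 in replicate 1 and 0.432 in replicate 2, and the H3K27ac ratio was 3.75 and 4.16. H3K27ac was 8.67-fold higher there, with a log2 difference of -3.12 (SE 0.12) and an adjusted p of 2.59e-19 (limma). Kcr was high in the same region, at a ratio of 2.63 in the only distinct Kcr library of N2. A pattern of this kind was also present before deprivation, when the H3K27ac ratio was 7.85 and 8.62 and the H3K36me2 ratio 0.464.

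Peak1606 on chromosome 2 (1456219 to 1457323) had the lowest H3K36me2 of these regions, with ratios of 0.256 and 0.288, beside H3K27ac ratios of 2.41 and 1.92. Its difference was -2.98 (SE 0.17, adjusted p = 1.02e-15, limma), and it was the largest of all toward H3K27ac with equal medians and SDs, at -6.36 SD (SE 0.35). Both marks departed from background in opposite directions in every library. Peak441 on chromosome 11 (1017219 to 1020476) had H3K36me2 ratios of 0.666 and 0.760 and the strongest H3K27ac of the group, with 5.14 and 5.35. The difference was -2.88 (SE 0.10), and here the depletion of H3K36me2 was milder.

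The other regions of that list were peak1333 on chromosome 19 (67688 to 70515) and peak2058 on chromosome 23 (687247 to 690598). Peak1333 had H3K36me2 ratios of 0.496 and 0.603 and H3K27ac ratios of 4.15 and 3.89. Peak2058 had 0.432 and 0.471 for H3K36me2 and 3.30 and 2.85 for H3K27ac. In all 5 regions, both H3K27ac libraries had a ratio of 1.92 or more, and both H3K36me2 libraries lay below background. The choice of these regions, and of the lists of N2 differences that follow, required that the marks did not overlap.

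The 5 regions with the largest difference toward H3K36me2 were shorter, from 551 to 1486 bp, and lay there mainly through low H3K27ac. Peak3644 on chromosome 8 (1172616 to 1173811) had H3K36me2 ratios of 1.34 and 1.28 and H3K27ac ratios of 0.476 and 0.451. H3K36me2 was 2.82-fold higher, with a difference of 1.49 (SE 0.16) and an adjusted p of 1.18e-09 (limma). Kcr was low as well, at 0.499. The libraries of both marks agreed closely in this region.

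At peak1293 on chromosome 18 (750441 to 751458), the H3K36me2 ratios were 1.05 and 1.08 and the H3K27ac ratios 0.296 and 0.486. The difference was 1.49 (SE 0.20), although H3K36me2 itself was hardly above background. Peak2436 on chromosome 27 (521860 to 522410) gave 0.926 and 1.29 for H3K36me2 and 0.337 and 0.463 for H3K27ac, so that its H3K36me2 libraries lay on either side of 1. Peak2846 on chromosome 30 (388240 to 389116) gave 1.29 and 1.14 for H3K36me2 and 0.370 and 0.522 for H3K27ac. Peak1122 on chromosome 17 (210014 to 211499) gave 1.07 and 1.11 for H3K36me2 and 0.360 and 0.453 for H3K27ac. In all 5, both H3K27ac libraries were at 0.522 or below and the H3K36me2 libraries lay between 0.926 and 1.34.

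With equal medians and SDs, the regions farthest toward H3K36me2 were others, and in these H3K36me2 was enriched rather than close to background. Peak9 on chromosome 1 (79217 to 80200) had H3K36me2 ratios of 1.6 and 1.54 and H3K27ac ratios of 0.661 and 0.640. Its difference was 3.29 SD (SE 0.21, adjusted p = 4.41e-05, limma), and 1.27 on the unscaled log2 scale. Peak697 on chromosome 13 (894747 to 895664) followed with 1.5 and 1.54 for H3K36me2 and 0.563 and 0.654 for H3K27ac, a difference of 3.27 SD. The remaining regions, peak3518, peak1792 and peak1096, had differences of 3.15, 3.14 and 3.08 SD. Toward H3K27ac, 3 of the 5 regions were those already named, joined by peak1399 on chromosome 19 (-4.99 SD) and peak181 on chromosome 1 (-4.39 SD). Peak1399 was far from H3K36me2 through depletion of that mark, with 0.319 and 0.358, while its H3K27ac ratios of 1.77 and 1.58 were below the median of that mark.

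**Figure D2:**
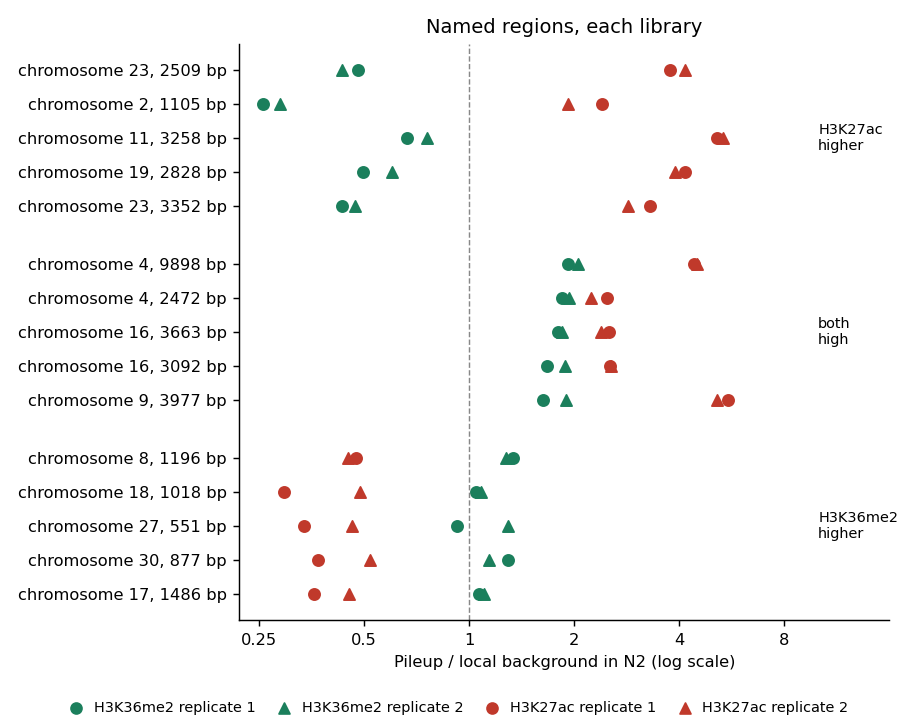
Ratio of pileup to local background in N2 (log scale) in each library, for the 5 regions with the largest difference toward H3K27ac, the 5 with the highest smaller ratio of the marks and the 5 with the largest difference toward H3K36me2. Circles are replicate 1 and triangles replicate 2, and the dashed line is a ratio of 1. In the upper group H3K36me2 lies below the line, in the middle group all libraries lie at 1.63 or above, and in the lower group all H3K27ac libraries lie at 0.522 or below.

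Some regions carried both marks. Peak3002 on chromosome 4 (1258348 to 1268245) had the highest smaller ratio, with 1.93 and 2.05 for H3K36me2 and 4.41 and 4.48 for H3K27ac. It was called toward H3K27ac on the unscaled ratios, by -1.16 (SE 0.09), and toward H3K36me2 with equal medians and SDs, by 1.09 SD (SE 0.17). The order of the marks in such regions therefore depended on the scale.

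Peak3038, also on chromosome 4 (1498017 to 1500488), had H3K36me2 ratios of 1.85 and 1.93 and H3K27ac ratios of 2.48 and 2.24. Its unscaled difference was only -0.32 (SE 0.09, adjusted p = 0.00239, limma). On chromosome 16, peak980 (87661 to 91323) had 1.80 and 1.84 for H3K36me2 and 2.51 and 2.39 for H3K27ac. Peak3038 and peak980 stood close to equality of the marks on the unscaled ratios. With equal medians and SDs they lay 1.95 and 1.72 SD toward H3K36me2. Peak1057 on chromosome 16 (718248 to 721339) had 1.67 and 1.89 for H3K36me2 and 2.53 and 2.55 for H3K27ac. Peak3792 on chromosome 9 (1142542 to 1146518) had 1.63 and 1.90 for H3K36me2 and the strongest H3K27ac of the list, with 5.53 and 5.12.

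The H3K36me2 ratio of these 5 regions had been lower earlier. In C0 it was 0.993 at peak3002, 1.19 at peak3038, 1.00 at peak980, 1.08 at peak1057 and 0.917 at peak3792, with values of 1.05 to 1.45 over both libraries in N1. The H3K27ac ratio was already at 2.23 or above in all 5, in every library of both earlier conditions. The regions were chosen for high N2 values, so their higher level in N2 is a description.

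The regions lowest for both marks were short. The 5 chosen by the lowest larger ratio among called regions were peak144 on chromosome 1, peak3780 on chromosome 9, peak1724 on chromosome 20, and peak3516 and peak3499 on chromosome 7, with widths from 412 to 1901 bp. Their H3K36me2 ratios were between 0.407 and 0.788 and their H3K27ac ratios between 0.460 and 0.738 over all libraries. The differences were small, from -0.55 to 0.43. Each of the 5 calls was lost when at least 1 of the 4 libraries was left out, so the order of the marks was not secure there. Without replicate 1 of H3K36me2 the adjusted p was 0.0781 at peak3499 and 0.0994 at peak1724 (limma), and without replicate 2 of H3K36me2 it was 0.526 at peak144, 0.397 at peak3780 and 0.363 at peak3516.

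The regions were sorted by whether each mark lay above or below the median of its own library in both libraries. Both marks were high in 882 regions and both were low in 858. In 590 regions H3K27ac was high and H3K36me2 low, and in 559 the reverse held. The libraries of a mark disagreed in the remaining 914. The classes were made from the N2 values of both marks, while width, Kcr and the earlier conditions were not used for them. These readouts are not independent of the N2 values. Across regions, log2 width correlated at r = 0.47 with H3K36me2 and 0.58 with H3K27ac in N2, and Kcr with H3K27ac at 0.92.

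These classes differed in width and in Kcr. Regions with both marks high had a median width of 9154.5 bp, against 1140.5 bp where both were low. Those with H3K27ac alone high had a median of 2897 bp and those with H3K36me2 alone high 2550 bp. The median Kcr ratio in N2 was 2.13 with both marks high and 2.05 with H3K27ac alone high. It was 1.41 with both low and 0.82 with H3K36me2 alone high. Kcr was thus higher in the classes with high H3K27ac, and there it differed little with H3K36me2. The classes with low H3K27ac differed in Kcr and also in H3K27ac itself. Their median H3K27ac ratio was 1.14 with both low and 0.77 with H3K36me2 alone high.

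The classes were largely those of the earlier conditions. In C0 and N1 a class was taken from the mean of the 2 libraries, so no region was left out. This rule was looser than that of N2, where H3K36me2 alone was high in 14.7% of all regions. Of the 559 regions with H3K36me2 alone high in N2, 442 were in the same class in C0 (79.1%), which held 26.2% of all regions then. In N1 it was 423 of them (75.7%, against 23.7% of all regions). Of the 882 regions with both marks high, 541 (61.3%) were so in C0 and 610 (69.2%) in N1, against 23.7% and 26.3% of all regions. For H3K27ac alone high it was 400 of 590 (67.8%) in C0 and 418 (70.8%) in N1, against 26.2% and 23.7%. The class with both low was the least stable, with 482 of 858 (56.2%) in C0 and 576 (67.1%) in N1, against 23.8% and 26.3%. In the regions with H3K36me2 alone high, median H3K27ac went from 0.51 in C0 through 0.57 in N1 to 0.77 in N2, while median H3K36me2 went from 1.37 through 1.29 to 1.27.

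**Figure D3:**
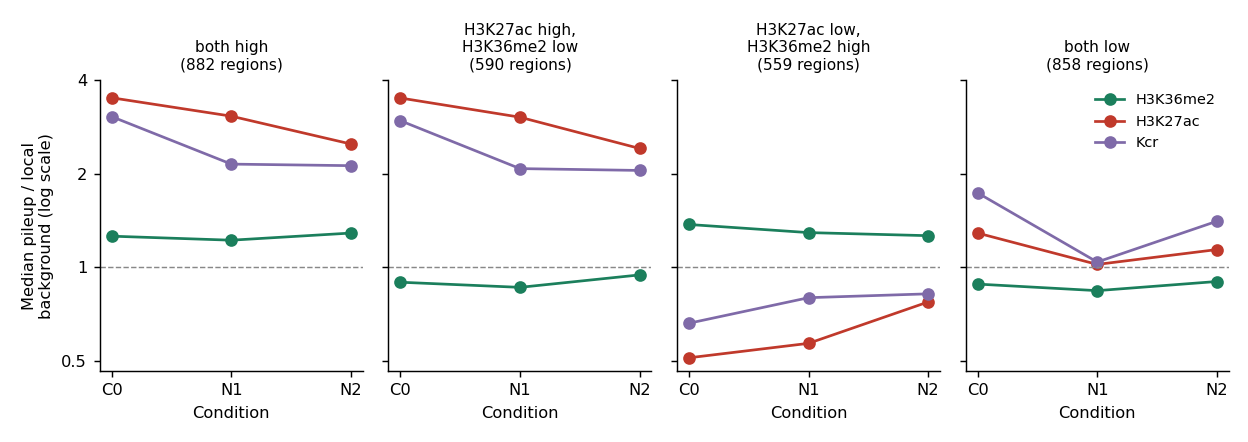
Median ratio of pileup to local background (log scale) of H3K36me2, H3K27ac and Kcr in C0, N1 and N2, for the 4 classes of regions defined by the N2 values of H3K27ac and H3K36me2. Median H3K27ac was highest in C0 in the classes where it is high in N2 (3.52 and 3.51, against 2.50 and 2.42 in N2) and lowest in C0 where H3K36me2 alone is high (0.51, against 0.77 in N2).

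Wide regions carried more of both marks, and the order of the marks changed with width. In the 535 regions under 1 kb the median difference was 0.42, and 278 were called toward H3K36me2 and 182 toward H3K27ac. At 1 to 5 kb (1948 regions) it was -0.71, at 5 to 12 kb (841 regions) -0.92, and in the 479 regions of 12 kb or more -1.03. Of the widest class, 476 regions (99.4%) were called toward H3K27ac and 1 toward H3K36me2. Under 1 kb the median ratio was 0.75 for H3K27ac and 0.97 for H3K36me2, and at 12 kb or more it was 2.57 and 1.24. With equal medians and SDs the calls in the widest class were nearly even, at 115 toward H3K27ac and 93 toward H3K36me2, while under 1 kb they were 112 and 279.

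H3K36me2 was also higher in wider regions among those with high H3K27ac. Where H3K27ac was high, the median H3K36me2 ratio was 1.03 at 1 to 5 kb, 1.19 at 5 to 12 kb and 1.25 at 12 kb or more. Where H3K27ac was low, it was 0.97 under 1 kb, 1.09 at 1 to 5 kb, 1.18 at 5 to 12 kb and 1.07 in the 16 regions of 12 kb or more. Acetylation was not alike across these low classes, since their median H3K27ac ratio was 0.71, 0.84, 1.41 and 1.60 from the narrowest to the widest. The correlation with log2 width over the 3803 regions was r = 0.47 for H3K36me2 and 0.58 for H3K27ac. The regions had been merged from peaks by the authors, so that their width depends on calling and merging.

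**Figure D4:**
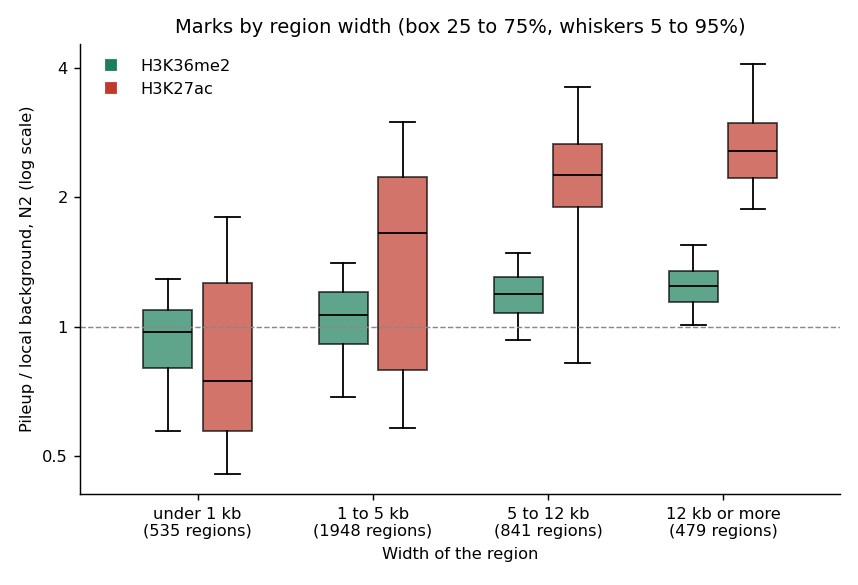
Ratio of pileup to local background in N2 (log scale) of H3K36me2 and H3K27ac by width of the region, as means of 2 libraries; lines are medians, boxes the middle of the distribution and whiskers the 5th to 95th percentile. H3K27ac runs from a median of 0.75 in regions under 1 kb to 2.57 at 12 kb or more, and H3K36me2 from 0.97 to 1.24.

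In the 3 widest regions the H3K27ac ratio was at least 2.23 in every library. H3K36me2 was not high in all of them, and at peak3596 and peak48 it lay below the median of 1.24 of their width class. Peak3596 on chromosome 8 (526093 to 598023), with 71931 bp, had H3K36me2 ratios of 1.03 and 1.13 and H3K27ac ratios of 2.75 in both libraries. Peak545 on chromosome 12 (666685 to 730874) had 1.27 and 1.30 for H3K36me2 and 2.94 and 3.05 for H3K27ac. Peak48 on chromosome 1 (343910 to 406968) had 1.10 and 1.12 for H3K36me2 and 2.84 and 2.23 for H3K27ac. All 3 were called toward H3K27ac on the unscaled ratios, and only peak3596 also with equal medians and SDs (-0.77 SD, adjusted p = 0.0107, limma).

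Regions with more H3K36me2 relative to H3K27ac were interspersed among those with more H3K27ac. The call toward H3K36me2 mostly marked low H3K27ac. The median H3K36me2 ratio was 1.14 in the 914 regions and 1.09 in the 2668 with more H3K27ac. For H3K27ac it was 0.66 and 2.21. An H3K36me2 ratio of at least 1.5 was reached by 17 of the 914 and 95 of the 2668, against 123 of all 3803 regions. Among the neighbours of the 914 regions with more H3K36me2, 11.2% also had more H3K36me2 and 83.1% had more H3K27ac. Over the neighbours of all regions these shares were 24.1% and 70.1%. Of 905 regions with more H3K36me2 and a neighbour on each side, 633 lay between 2 regions with more H3K27ac. The median gap between neighbours was 1520 bp, and adjoining stretches of the same kind may have been merged before the values were taken. The median difference varied little by chromosome, from -0.92 on chromosome 2 to -0.64 on chromosome 30. It was also close to the rest within 20 kb of the outermost region of a chromosome, at -0.79 in 193 regions against -0.77.

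Whether the difference between the marks was particular to day 2 was tested by the change of the difference itself. The pattern was mostly that of C0 and N1, but narrower. The N2 difference correlated across regions with that of C0 at r = 0.92 and with that of N1 at r = 0.94. From C0 through N1 to N2, the SD of the H3K27ac log2 ratios was 1.37, 1.23 and 0.85, while for H3K36me2 it went through 0.52, 0.50 and 0.32. The median difference went from -1.28 through -1.16 to -0.77.

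From N1 to N2 the difference moved toward H3K36me2 in 1527 regions (40.2%) and toward H3K27ac in 644 (16.9%), by limma at an adjusted p under 0.05. The direction went with the N2 call, which rests on the same N2 libraries. Of the regions with more H3K27ac in N2, 1452 moved toward H3K36me2 and 57 toward H3K27ac. Their median log2 changes were -0.28 for H3K27ac and 0.12 for H3K36me2. Of those with more H3K36me2, 549 moved toward H3K27ac and 10 toward H3K36me2, with median changes of 0.56 for H3K27ac and -0.14 for H3K36me2. With equal medians and SDs, fewer regions changed, at 514 (13.5%) toward H3K36me2 and 365 (9.6%) toward H3K27ac. With equal medians alone, which takes out a shift of 0.25 between the days, the majority turned, at 651 toward H3K36me2 and 939 toward H3K27ac.

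From C0, 1918 regions (50.4%) moved toward H3K36me2 and 836 (22%) toward H3K27ac. With equal medians and SDs the counts were 322 (8.47%) and 185 (4.86%). With equal medians alone, which takes out a shift of 0.36, the majority turned, at 943 and 1171. On the pileup alone, without division by the background, the split turned to 178 and 2275. The pileup and the background of H3K36me2 were both higher in C0 than later, with medians of 44.5 and 37.7 against 25.9 to 26.2 and 23.8 to 24.1 in N2, so the deposited values of that group were on another scale. The libraries of H3K36me2 in C0 held identical values and entered as 1, so the other groups of the fit give its spread. The changes from N1 and from C0 share the N2 libraries.

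Although the difference narrowed, its order seldom turned. In a fit over all libraries of both marks, 883 regions had more H3K36me2 and 2632 more H3K27ac in both N1 and N2, while 3 turned to H3K36me2 and 6 to H3K27ac. Between C0 and N2, 883 and 2635 regions kept the same call, and 4 turned in each direction. Among the latter, peak1118 on chromosome 17 (162269 to 166306) was singled out after its values were seen. Its H3K27ac ratio in C0 was 0.621 and 0.550, in N1 it was 7.00 and 6.58, and in N2 3.55 and 4.03. For H3K36me2, the C0 ratio of 1.06 was followed by 1.16 and 1.14 in N1 and by 1.58 and 1.70 in N2. The change of the difference from C0 was -2.07 (adjusted p = 6.42e-09, limma), and H3K36me2 was highest in N2 whereas H3K27ac was highest in N1.

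At the 6 regions with the largest changes from N1 to N2, H3K27ac moved more than H3K36me2 in 4 and less in the others. At peak1423 on chromosome 19 (635808 to 637802), H3K27ac went from 6.37 and 5.85 in N1 to 2.36 and 2.30 in N2, while H3K36me2 went from 0.662 and 0.724 to 1.12 and 1.23. The difference moved by 2.15 toward H3K36me2 (SE 0.13, adjusted p = 4.78e-10, limma). In C0 this region had H3K27ac at 1.23 and 1.11, so the strong acetylation was seen in the deprived cells and was highest in N1.

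Peak1227 on chromosome 18 (159990 to 161424) went from 0.596 and 0.541 in N1 to 1.06 and 1.16 in N2 for H3K36me2, and from 2.89 and 2.52 to 1.40 and 1.73 for H3K27ac. The difference moved by 1.76 toward H3K36me2. At peak2347 on chromosome 26 (531091 to 532011), H3K36me2 went from 0.257 and 0.242 in N1 to 0.424 and 0.489 in N2, while H3K27ac went from 1.65 and 1.71 to 0.928 and 0.965. In all 3 regions the 2 marks moved in opposite directions between the days, without overlap between the days for either mark. The choice of regions by the largest change of the difference favours such a pattern.

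Toward H3K27ac, peak256 on chromosome 10 (693745 to 695746) went from 0.416 and 0.365 in N1 to 1.22 and 1.35 in N2 for H3K27ac, and from 1.48 and 1.40 to 1.03 and 1.14 for H3K36me2. The change was -2.12 (SE 0.21, adjusted p = 8.56e-07, limma), and the C0 values of H3K27ac, 1.44 and 1.49, were close to those of N2. Its low H3K27ac was thus seen in N1 alone. Peak1934 on chromosome 22 (658656 to 659175) and peak2549 on chromosome 29 (54258 to 55892) changed by -2.20 and -1.89. For H3K27ac, peak1934 went from 0.221 and 0.122 in N1 to 0.582 and 0.522 in N2, and for H3K36me2 from 1.28 and 1.32 to 0.905 and 0.990. Peak2549 went from 0.219 and 0.268 to 0.661 and 0.593 for H3K27ac, and from 1.53 and 1.60 to 0.948 and 1.25 for H3K36me2. Peak256, peak1934 and peak2549 all lay at the lowest background of N2, 18.7.

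**Figure D5:**
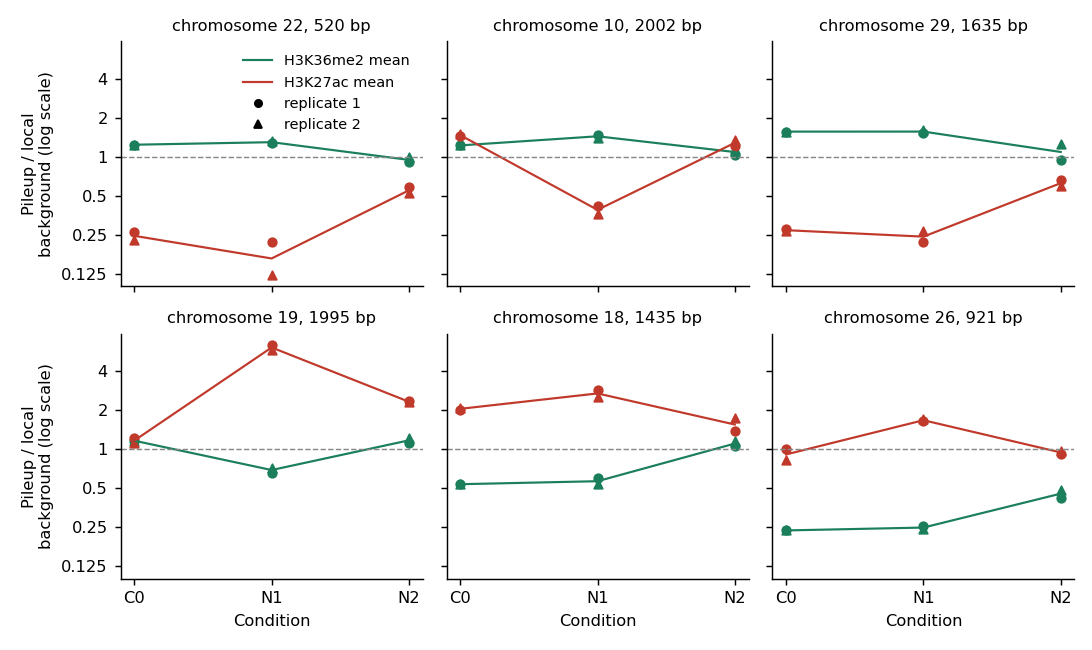
Ratio of pileup to local background (log scale) of H3K36me2 and H3K27ac in C0, N1 and N2 at the 6 regions with the largest changes of the mark difference from N1 to N2, toward H3K27ac in the upper row and toward H3K36me2 in the lower row. Lines join the means, and points are libraries (the H3K36me2 libraries of C0 hold identical values). At the region on chromosome 19, H3K27ac is at 6.37 and 5.85 in N1 and at 2.36 and 2.30 in N2.

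The regions richest in H3K36me2 differed between the conditions, and in N2 more of them carried H3K27ac. Among the 380 regions with the highest H3K36me2, the tenth of all regions, 300 (78.9%) had an H3K27ac ratio of at least 1.5 in N2, against 62.6% of all regions. In C0 this held for 165 of 380 (43.4%, against 68.2% of all regions) and in N1 for 175 of 380 (46.1%, against 65.9%). The share with H3K27ac was thus below that of all regions in C0 and N1 and above it in N2, which was not tested since regions are not replicates. Taken from each N2 library alone, the shares were 75.8% and 78.4%.

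Of the 380 regions highest in N2, 66 were among the 380 highest in C0 and 89 among those of N1, and C0 and N1 shared 121. The 2 libraries of N2 shared 218 of their 380, and those of N1 237. The low end was more stable, with 249 of the lowest 380 shared with C0. The median width of the 380 highest was 3340 bp in C0, 4352.5 bp in N1 and 6437 bp in N2. The part of width and of the smaller spread of H3K36me2 in N2 in this shift was not tested.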

How the data were processed

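Per the submitters' processing notes and the study's methods, the authors used Trim Galore for trimming, BWA for alignment, Picard for duplicates, deepTools, and MACS2 for peaks against input. The study names the NanDeSyn database for its genome. The sources used here do not give tool versions, the build used for ChIP-seq or the way peaks were merged, and coordinates are those of the tables. The authors deposited a coverage signal (pileup) and a local background signal (lambda) for each library over 3803 regions, with identical library values in 9 tables. Further scores, and the log2 fold changes, p-values and status calls made by the authors, were not used. Another 36 columns, from 12 libraries without a label here, were left out. No genome or gene annotation of the nuclear chromosomes was used, so regions carry no gene and no sequence is shown.

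Enrichment was log2(pileup + 0.5) minus log2(lambda + 0.5), which understates changes of low values; ratios are 2 to that power. limma-trend 3.58.1 (R 4.3.3) was fitted to the 4 N2 libraries, and to both marks in N1 and N2 or in C0 and N2 for changes of the difference, with Benjamini-Hochberg adjustment over all regions, two-sided, at 0.05. The code was tested on simulated data. Named regions were, among called regions whose marks had 1 order in all library pairs, the 5 largest differences in each direction on either scale, the 5 highest smaller ratios and the 5 lowest larger ratios, with the 3 largest N1 to N2 changes in each direction and the 3 widest regions. Classes, regions and tests were chosen with earlier results of these data known, and the comparison of the 380 regions highest in H3K36me2 was added after seeing the values. Alternatives were equal scales, pileup alone, pseudocounts of 1 and 5, a lambda filter, a replicate block, robust and shared fits, and leaving out each library. Replicate numbers did not pair the samples: deviations from the group means correlated at r = 0.03 in N2.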

Additional observations from a re-analysis of the deposited data

Results flagged for a closer look

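Several changes of the difference between H3K36me2 and H3K27ac across conditions passed the test of the difference itself (the interaction in limma, adjusted p under 0.05). From N1 to N2 the difference moved toward H3K36me2 in 1527 regions and toward H3K27ac in 644, and from C0 to N2 in 1918 and 836. With equal medians the majority turned, to 651 and 939 from N1 and to 943 and 1171 from C0. The change from C0 has 1 distinct H3K36me2 library in C0, whose spread is taken from the other groups, and its counts turned to 178 and 2275 on pileup alone. The regions with the largest tested changes from N1 to N2 were peak1934 (-2.20), peak256 (-2.12) and peak2549 (-1.89) toward H3K27ac, and peak1423 (2.15), peak1227 (1.76) and peak2347 (1.70) toward H3K36me2. All 6 kept direction and call under every alternative run on them, with equal medians and SDs included. The lambda filter left 3 of the 6 without a value. The mean background in N2 was 18.7, the lowest of all regions, at peak1934, peak256 and peak2549. It was 22.1, 26.9 and 23.5 at peak1423, peak1227 and peak2347.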

How the results depend on the processing

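In N2, 2668 regions were called toward H3K27ac on the unscaled ratios, 1275 with equal medians and 1086 with equal medians and SDs. Leaving out each library in turn gave 2584 to 2654 calls toward H3K27ac and 805 to 899 toward H3K36me2. On the scale of equal medians and SDs, it gave 558 to 1367 and 1030 to 1608 (chosen after seeing the data). The low counts toward H3K27ac, 558 and 567, came without replicate 1 and without replicate 2 of H3K27ac. With the replicate block the N2 counts were 2672 and 920, and 1123 and 1368 with equal medians and SDs as well. Among named regions, the difference at peak3002, peak3038, peak980, peak1057 and peak3792 turned to 1.09, 1.95, 1.72, 1.55 and 0.27 SD with equal medians and SDs. At peak3792 the difference on that scale was not called (SE 0.22, adjusted p = 0.317, limma). With equal medians it turned to 0.44 at peak3038, 0.33 at peak980, 0.24 at peak1057, 0.34 at peak144 and 0.21 at peak3499.

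From N1 to N2, calls toward H3K36me2 numbered 651 with equal medians, 514 with equal medians and SDs and 2304 on pileup alone, and 1281 to 1431 when each library was left out. Toward H3K27ac they numbered 939 with equal medians, 365 with equal medians and SDs, 398 with the lambda filter, 415 on pileup alone and 498 to 667 when each library was left out. The median change was 0.49 on pileup alone, against 0.24. From C0 to N2, calls toward H3K36me2 numbered 943 with equal medians, 322 with equal medians and SDs and 178 on pileup alone. Toward H3K27ac they numbered 1171 with equal medians, 185 with equal medians and SDs and 2275 on pileup alone. The median change turned to -0.50 on pileup alone, against 0.37. The cause of these shifts was not tested.

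The lambda filter had no effect in N2, since more than the intended 10% of regions share the lowest background and all 3803 passed. Depth and replication limit small differences: the 2 libraries of a group differ by less than sampling noise, so p-values do not measure spread between cultures.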
